A study of Mus musculus with 8 samples.

Results

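The 8 enzymes described here, Hmgcs1, Mvd, Idi1, Fdps, Fdft1, Sqle, Lss and Cyp51, carry acetyl-CoA units to cholesterol. Their mRNA was followed in BAT (brown adipose tissue) from mice with and without left ventricular pressure overload. They were chosen as enzymes of cholesterol synthesis with earlier results of these data known, so their shares below are descriptions. They are 8 of the 21154 genes with a named probe on the array. The array holds 10 probes for them, of which 9 were tested, and every enzyme had a probe well above background on all 7 arrays with scanner data. The mice were male, of the strain C57BL/6NCrSlc with no altered gene named, housed at 23 °C. At 11 weeks of age they had thoracic aortic constriction (TAC), which narrows the aorta and so loads the left ventricle, or a sham operation (Sham). By the labels BAT was collected at 13 weeks of age, and they disagree on the interval since the operation (2 weeks by the source name, 4 weeks by the description). The ages at operation and collection fit the 2 weeks of the source name. Each group had 4 mice and 1 Agilent array per mouse. A TAC mouse differs from a Sham mouse in the whole circulation, so the groups do not separate an effect on BAT itself from effects elsewhere in the animal.

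Cholesterol synthesis starts with acetyl-CoA in the cytosol, passes through mevalonate, builds isoprene units and joins them into farnesyl diphosphate. Farnesyl diphosphate is a branch point: some of it is used for prenylated proteins and other isoprenoids, and some is joined into squalene and closed into the sterol ring. The genes of the pathway are classical targets of the transcription factor SREBP2, which the sterol sensor Scap carries out of the endoplasmic reticulum when membrane sterol is low and which the Insig proteins hold back when it is high. Brown adipocytes also make fatty acids at a high rate, with enzymes partly under the related factor SREBP1c. SREBP2 binds promoters at sterol regulatory elements, usually beside sites for the factors NF-Y and Sp1.

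The promoters of 4 enzymes are shown so that the letters at these sites can be seen beside the values. Of these, Idi1 and Lss were lower after TAC at an unadjusted limma p under 0.05, and Hmgcs1 and Mvd were not. None of the 4 passed the adjusted threshold. Each window runs from 250 bases before to 50 bases after the RefSeq start site on GRCm38.p6, and is written 5′ to 3′ on the strand of the gene. The Idi1 window is chr13:8885356-8885655 on the plus strand, that of Lss chr10:76531355-76531654 on the plus strand, that of Hmgcs1 chr13:119690101-119690400 on the plus strand and that of Mvd chr8:122443373-122443672 on the minus strand. Capitals mark matches on either strand to the sterol regulatory element as TCACNCCAC, to CCAAT (the core of the NF-Y site, ATTGG on the other strand) and to GGGCGG (the core of the Sp1 site, CCGCCC on the other strand). No capital run is shared by 2 of the motifs.
Idi1: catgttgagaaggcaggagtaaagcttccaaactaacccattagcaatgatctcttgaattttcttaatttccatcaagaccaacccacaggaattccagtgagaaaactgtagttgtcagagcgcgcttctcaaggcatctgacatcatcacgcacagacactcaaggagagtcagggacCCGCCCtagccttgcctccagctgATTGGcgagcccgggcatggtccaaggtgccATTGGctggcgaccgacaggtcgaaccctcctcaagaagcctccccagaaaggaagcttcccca
Lss: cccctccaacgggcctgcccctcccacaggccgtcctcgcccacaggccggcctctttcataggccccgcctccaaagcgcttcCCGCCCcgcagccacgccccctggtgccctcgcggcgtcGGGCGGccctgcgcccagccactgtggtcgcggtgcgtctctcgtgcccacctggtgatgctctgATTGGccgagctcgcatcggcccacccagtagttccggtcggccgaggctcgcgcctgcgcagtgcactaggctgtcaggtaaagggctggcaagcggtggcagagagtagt
Hmgcs1: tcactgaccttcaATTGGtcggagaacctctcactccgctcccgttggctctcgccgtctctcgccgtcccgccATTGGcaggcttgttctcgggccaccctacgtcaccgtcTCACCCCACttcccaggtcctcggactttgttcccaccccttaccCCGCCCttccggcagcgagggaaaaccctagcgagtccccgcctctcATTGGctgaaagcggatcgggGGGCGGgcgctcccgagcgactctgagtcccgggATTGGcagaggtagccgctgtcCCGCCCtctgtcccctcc
Mvd: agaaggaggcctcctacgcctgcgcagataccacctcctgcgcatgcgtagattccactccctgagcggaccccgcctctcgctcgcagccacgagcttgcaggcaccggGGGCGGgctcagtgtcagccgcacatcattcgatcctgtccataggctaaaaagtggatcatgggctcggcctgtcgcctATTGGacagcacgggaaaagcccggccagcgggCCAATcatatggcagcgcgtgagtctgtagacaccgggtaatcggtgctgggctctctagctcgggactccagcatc

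Windows were available for 5 of the 8 enzymes, these 4 and Cyp51. The sterol element in these letters was found in 1 of the 5, Hmgcs1, where it begins at -137 relative to the start site, and in 1.24% of the 32851 promoter windows of all genes. The CCAAT core was found in 5 of the 5 and in 37.4% of all windows, and the GGGCGG core in 5 of the 5 and in 35.7% of all windows. Of 12 other enzymes of the pathway, with 15 windows, 11 held CCAAT, 10 held GGGCGG and 0 held the sterol element as spelled. Here an enzyme counted if any of its windows matched, whereas the shares of all windows count single windows. Idi1 and Lss, lower after TAC only at the unadjusted threshold, and Hmgcs1 and Mvd, which did not pass it, all held CCAAT and GGGCGG near the start site. A match describes letters and not a bound site, and a window without one says only that these letters were not in it.

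**Figure D1:**
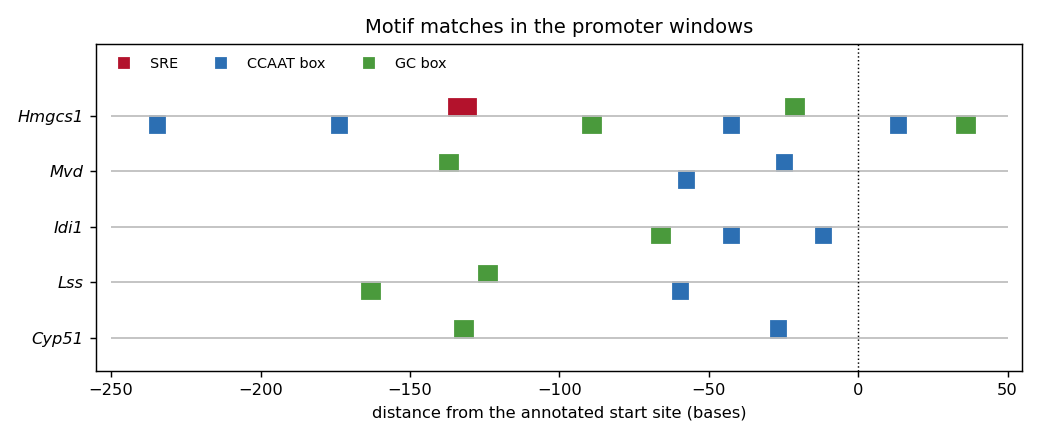
Matches to the 3 motifs in the promoter windows of 5 enzymes, by distance in bases from the annotated start site (dotted line), with matches on the strand of the gene drawn above each line and those on the other strand below it. All 5 windows hold a CCAAT and a GGGCGG match, and the 1 sterol element match lies in Hmgcs1.

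In BAT after TAC, the mRNA of 4 of the 8 enzymes was lower at an unadjusted p under 0.05 (Fdps, Idi1, Sqle and Lss), and that of 0 was higher. In all probes tested the share lower at that threshold was 8.43% and the share higher 4.38%. None of the 8 passed an adjusted p of 0.05, and neither did any of the 33364 probes tested with limma (0.0%), of which 2814 were lower and 1462 higher at an unadjusted p under 0.05. The smallest limma adjusted p among the enzymes was 0.196 and among all probes 0.0575. For 5 of the 8 enzymes (the same 4 and Cyp51) every TAC array lay below every Sham array, a pattern found in 10.4% of all probes. The median log2 difference over the 8 enzymes, TAC minus Sham, was -0.38, and that of all probes tested was -0.03. The differences below therefore stand as measured differences with their intervals, and none is called at the adjusted threshold. In these bulk samples, fewer cells that make an mRNA and less of that mRNA per cell cannot be told apart.

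The values are log2 signal relative to the 75th percentile of each array, so 1 unit is a doubling, and they compare arrays for 1 probe and not 1 gene with another. Hmgcs1 (probe A_55_P2032966) makes HMG-CoA, the precursor of mevalonate. Its log2 signal was 4.62, 4.61 and 4.38 on Sham replicates 2 to 4 and 4.01, 4.49, 4.72 and 4.34 on TAC replicates 1 to 4. TAC replicate 1 was the lowest array and TAC replicate 3 the highest, and the groups overlapped. The log2 difference was -0.15 (95% interval -0.55 to 0.26, limma adjusted p = 0.737), and without TAC replicate 1 it was -0.02. The other Hmgcs1 probe (A_55_P1954569) was well above background on 0 of 7 arrays and was not tested.

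Mvd (probe A_51_P355943) decarboxylates mevalonate diphosphate to the isoprene unit isopentenyl diphosphate. On Sham replicates 2 to 4 its log2 signal was -1.22, -1.27 and -1.34, and on TAC replicates 1 to 4 it was -1.19, -1.16, -1.27 and -1.08. It was the only one of the 8 with a higher TAC mean, and the groups overlapped. The log2 difference was 0.10 (95% interval -0.09 to 0.30, limma adjusted p = 0.621).

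Idi1 (probe A_55_P2028961) converts isopentenyl diphosphate to its isomer, with which chain building starts. Its log2 signal was 1.97, 2.20 and 1.85 on Sham replicates 2 to 4 and 0.96, 1.45, 1.05 and 1.35 on TAC replicates 1 to 4. The lowest Sham array stood 0.41 above the highest TAC array. The Sham mean was 2.01 ± 0.17 (SD, n = 3) and the TAC mean 1.20 ± 0.24 (SD, n = 4), a log2 difference of -0.81 (SE 0.15), or 1.75 times as much signal in Sham (95% interval 1.36 to 2.25, limma adjusted p = 0.197).

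Fdps (probe A_55_P1966804) makes farnesyl diphosphate, the branch point of the pathway, and had the largest difference of the 8. Its log2 signal was 3.35, 3.93 and 3.65 on Sham replicates 2 to 4 and 2.38, 2.65, 2.40 and 2.72 on TAC replicates 1 to 4. The lowest Sham array stood 0.63 above the highest TAC array, the widest gap among the 8 enzymes. The Sham mean was 3.64 ± 0.29 (SD, n = 3) and the TAC mean 2.54 ± 0.17 (SD, n = 4), a log2 difference of -1.11 (SE 0.16), or 2.15 times as much signal in Sham (95% interval 1.65 to 2.80, limma adjusted p = 0.196).

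Fdft1 (probe A_55_P2033250) is squalene synthase, the enzyme that commits farnesyl diphosphate to sterols. On Sham replicates 2 to 4 the log2 signal of Fdft1 was 5.22, 5.14 and 5.21, against 5.06, 5.19, 5.10 and 5.26 on TAC replicates 1 to 4. The 7 arrays overlapped within a narrow range. The log2 difference was -0.04 (95% interval -0.24 to 0.16, limma adjusted p = 0.879), an interval that does not reach the log2 difference of Fdps, the enzyme just before it. A dimmer Fdft1 probe (A_52_P136138) gave a log2 difference of -0.11 with a wider interval of -0.84 to 0.62.

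Sqle (probe A_55_P1975185) is squalene epoxidase, the first oxygen-requiring step toward the sterol ring. Its log2 signal was -0.55, 0.33 and -0.21 on Sham replicates 2 to 4 and -0.73, -0.997, -1.02 and -0.73 on TAC replicates 1 to 4. The Sham arrays spread over 0.88, the widest spread of any of the 8 in either group, and the lowest of them lay 0.18 above the highest TAC array. The Sham mean was -0.14 ± 0.44 (SD, n = 3) and the TAC mean -0.87 ± 0.16 (SD, n = 4), a log2 difference of -0.73 (SE 0.21), or 1.66 times as much signal in Sham (95% interval 1.18 to 2.33, limma adjusted p = 0.274). Its size depended on single Sham arrays: the log2 difference was -0.93 without Sham replicate 2 and -0.49 without Sham replicate 3.

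Lss (probe A_51_P296487) closes squalene epoxide into lanosterol, the first sterol of the pathway. The log2 signal of Lss was 0.60, 0.71 and 0.36 on Sham replicates 2 to 4 and 0.02, 0.07, -0.20 and 0.17 on TAC replicates 1 to 4. The groups were 0.19 apart. The Sham mean was 0.56 ± 0.18 (SD, n = 3) and the TAC mean 0.02 ± 0.16 (SD, n = 4), a log2 difference of -0.54 (SE 0.13), or 1.45 times as much signal in Sham (95% interval 1.18 to 1.79, limma adjusted p = 0.213).

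Cyp51 (probe A_52_P164161) is the cytochrome that removes a methyl group from lanosterol. Its log2 signal was -2.15, -2.07 and -2.22 on Sham replicates 2 to 4 and -2.54, -2.32, -2.25 and -2.40 on TAC replicates 1 to 4. The groups did not overlap, but the gap between the lowest Sham and the highest TAC array was 0.03. The log2 difference was -0.23 (SE 0.10, 95% interval -0.46 to 0.0010, limma adjusted p = 0.392), just short of the unadjusted threshold, and without TAC replicate 1 it was -0.18.

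In order of the log2 difference, Fdps was followed by Idi1, Sqle, Lss and Cyp51, and then by Hmgcs1, Fdft1 and Mvd. The 95% intervals of neighbours in this order overlapped, and differences between enzymes were not tested. TAC replicate 1 was the lowest TAC array for 5 of the 8 enzymes and TAC replicate 3 for the other 3. Among Sham replicates 2 to 4, replicate 3 was the highest for 5 enzymes and replicate 4 the lowest for 5.

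Sham replicate 1 took no part in these fits, because only the table of normalised signal was used for it. On the scale of that table it lay above the mean of the TAC arrays by 0.63 for Idi1, 0.49 for Fdps, 0.48 for Sqle, 0.21 for Lss and 0.16 for Cyp51, and above every TAC array for each of these 5. It was also the lowest of the Sham arrays for Idi1, Fdps, Lss and Cyp51, with Fdps 0.63 below the mean of the other Sham arrays. For Hmgcs1 and Mvd it lay within the TAC arrays, and for Fdft1 below them. With all 8 arrays of the table, 5 of the 8 enzymes kept every TAC array below every Sham array, against 6.29% of all probes, and 5 of the 8 were lower at an unadjusted limma p under 0.05, against 9.56%. The log2 differences from the 8 arrays were -0.96 for Fdps (SE 0.19), -0.78 for Idi1 (SE 0.14), -0.68 for Sqle (SE 0.19), -0.47 for Lss (SE 0.13) and -0.22 for Cyp51 (SE 0.09), and the adjusted p of these 5 lay between 0.172 and 0.309.

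**Figure D2:**
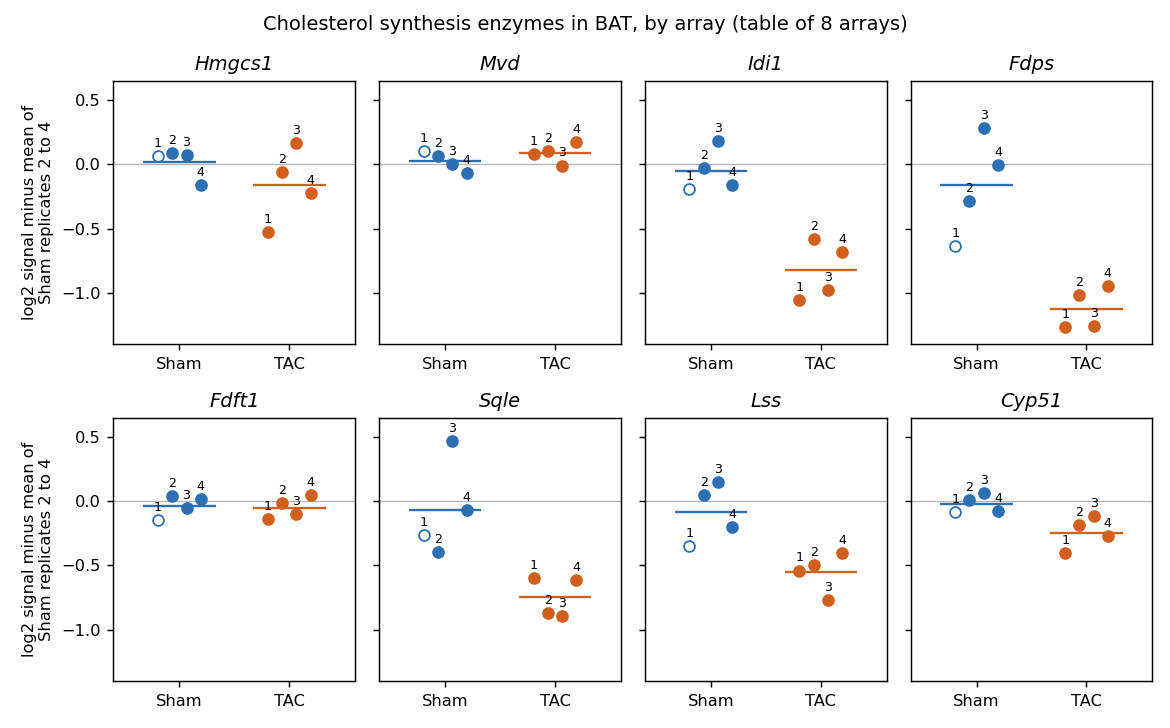
Log2 signal of the 8 enzymes on each of the 8 arrays of the deposited table, minus the mean of Sham replicates 2 to 4, with numbers giving the replicate, open circles Sham replicate 1 and horizontal lines the mean of 4 arrays. The 4 TAC arrays lie below the 4 Sham arrays for Idi1, Fdps, Sqle, Lss and Cyp51 and overlap them for Hmgcs1, Mvd and Fdft1.

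Of 12 other enzymes of the pathway, 4 were lower after TAC at an unadjusted limma p under 0.05 and 0 were higher. None passed the adjusted threshold, and the median log2 difference of the 12 was -0.22. Over all probes tested, 8.43% were lower and 4.38% higher at the unadjusted threshold. The largest differences were in Nsdhl, a sterol dehydrogenase of the demethylation steps, with -1.16 (SE 0.17, adjusted p = 0.196), and in Pmvk, the phosphomevalonate kinase, with -1.003 (SE 0.21, adjusted p = 0.197). Log2 signal of Nsdhl was 1.17, 1.12 and 0.86 on Sham replicates 2 to 4 and -0.32, 0.14, -0.38 and 0.11 on TAC replicates 1 to 4. For Pmvk it was 5.55, 5.95 and 5.71 on Sham replicates 2 to 4 and 4.23, 4.99, 4.73 and 4.99 on TAC replicates 1 to 4. Both genes had another tested probe, which gave -1.20 for Nsdhl and -1.01 for Pmvk.

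Sc5d, a sterol desaturase, was also lower, with a log2 difference of -0.41 (SE 0.09), as was Msmo1, a methylsterol oxidase, with -0.38 (SE 0.15). The remaining 8 did not pass the unadjusted threshold. They were Mvk, the mevalonate kinase, with -0.21, Dhcr7, which completes cholesterol, with -0.25, the sterol reductases Tm7sf2 with -0.22 and Lbr with 0.14, Ggps1 of the geranylgeranyl branch with -0.09, Hsd17b7 with -0.01, Ebp with 0.02 and Acat2, the cytosolic thiolase at the start, with 0.06. In pathway order, enzymes with large differences thus stood beside enzymes with small ones: Pmvk came just before Mvd, and Fdps just before Fdft1.

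**Figure D3:**
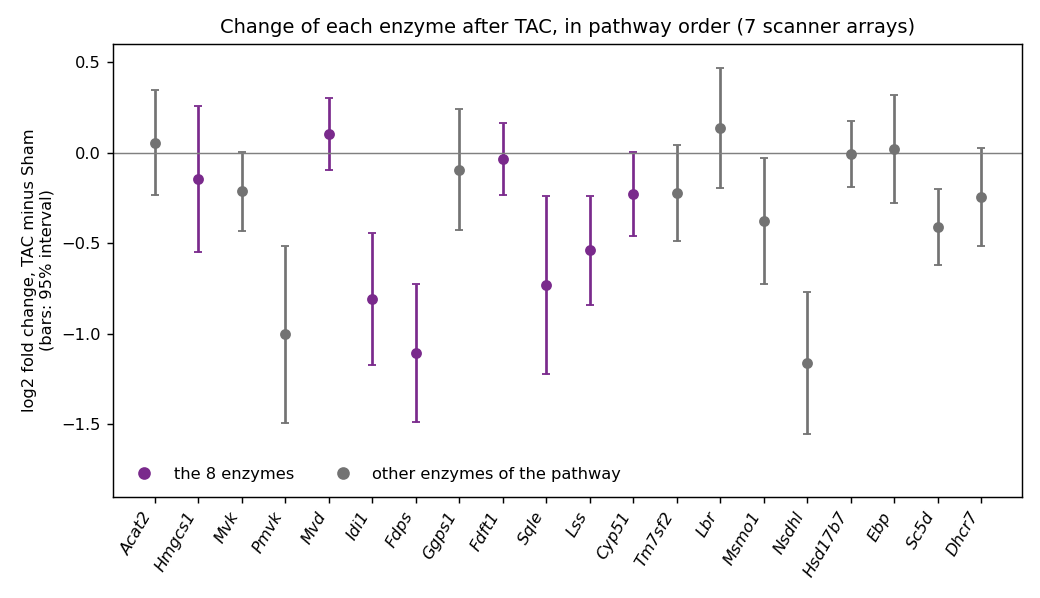
Log2 fold change, TAC minus Sham, of the cholesterol synthesis enzymes in pathway order from left to right, with bars for the 95% interval from the fit of 7 arrays, the 8 enzymes in purple and the 12 other enzymes in grey. Fdps, Idi1, Sqle, Lss, Pmvk, Nsdhl, Sc5d and Msmo1 have intervals below 0, and no enzyme has an interval above 0.

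Of the 10 genes for sterol sensing, esterification and export, 9 were tested. 1 of the 9 was lower at an unadjusted limma p under 0.05, beside 8.43% of all probes tested, 0 were higher, and the median was -0.14. The gene was Insig2, which retains Scap, with a log2 difference of -0.22 (SE 0.09, adjusted p = 0.372). Its dimmer probe, also well above background on 7 arrays, gave -0.17 (95% interval -0.46 to 0.11) with overlapping groups. With the 8 arrays of the table the genes called at that threshold were others: Insig2 no longer passed it and its groups overlapped, while Insig1 (log2 difference -0.70, SE 0.27) and Abca1 (-0.21, SE 0.08) passed. Insig1, itself a classical SREBP target, had -0.60 (SE 0.31, 95% interval -1.32 to 0.13), with log2 signal of 1.21, 1.38 and 0.89 on Sham replicates 2 to 4 and -0.24, 1.03, 0.58 and 0.87 on TAC replicates 1 to 4. TAC replicate 1 was the lowest of these, and without it the Insig1 difference was -0.33. Srebf2, which encodes SREBP2, had a log2 difference of -0.10 (95% interval -0.32 to 0.11), and its dimmer probe 0.35 (95% interval -0.41 to 1.11), which was 0.07 without TAC replicate 1. Scap had -0.08, the LXR receptor gene Nr1h2 -0.17, the sterol exporters Abca1 -0.18 and Abcg1 0.33, the sterol carrier Stard4 0.03 and Mylip, an LXR target, -0.14. Several of these rested on TAC replicate 1: without it Abcg1 was at 0.06, Nr1h2 at -0.09, Scap at 0.05 and Stard4 at -0.08. Soat1, which esterifies cholesterol, was well above background on 2 of 7 arrays and was not tested.

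Values of fatty acid synthesis genes, which share the acetyl-CoA precursor, are given side by side. Of the 10 genes, 9 were lower after TAC at an unadjusted limma p under 0.05 and 0 higher, with 0 past the adjusted threshold. Over all probes tested, 8.43% were lower and 4.38% higher at the unadjusted threshold. The median log2 difference of the 10 genes was -1.55. Scd2, a desaturase, did not pass, with -0.70 (95% interval -1.54 to 0.13) and TAC replicate 1 above 2 of the 3 scanned Sham arrays. Without TAC replicate 1 the Scd2 difference was -1.02 (SE 0.18). With the 8 arrays of the table all 10 genes were lower at the unadjusted threshold, against 9.56% of all probes. The differences ran from -0.35 for Acacb to -2.94 (SE 0.96) for Fasn, the fatty acid synthase. Fasn was 0.63 on TAC replicate 1 and 3.48 to 4.81 on the other TAC arrays, and without TAC replicate 1 its log2 difference was -2.02 (SE 0.35). Acly, which makes cytosolic acetyl-CoA from citrate, had -1.88 (SE 0.28) and Acss2, which makes it from acetate, -1.71 (SE 0.21). The mean of the 8 cholesterol enzymes on the TAC arrays, relative to Sham replicates 2 to 4 in the table, was -0.56, -0.39, -0.50 and -0.37 on replicates 1 to 4, and that of the fatty acid list -2.01, -0.99, -1.52 and -1.17. Both lists were lowest on TAC replicate 1 and next lowest on TAC replicate 3, and no test of a difference between the lists was made.

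Other features of the libraries moved with the groups or with single arrays. The scanned Sham arrays filled the first row of 1 slide and the TAC arrays the other row, so place on the slide and surgery cannot be told apart. TAC replicate 1 stood apart in a principal component that held 34.5% of the variance, at 89.9 against -32.6 to 4.39 for the other 7 arrays. The tissue label held: Ucp1, the uncoupling protein of brown fat, had a mean log2 signal of 9.54 in Sham and 8.93 in TAC and was well above background on 7 of 7 arrays. Of 10 brown adipocyte markers, 2 were lower at an unadjusted limma p under 0.05, beside 8.43% of all probes tested, and 0 higher. The 2 were Ucp1 (log2 difference -0.61) and Plin1 (-0.35). Elovl3 (-2.48) and Dio2 (-1.10) had larger differences without passing, while Pparg (0.10) and Adipoq (0.185) had higher TAC means. The mean of the 10 markers relative to Sham replicates 2 to 4 ran from -0.25 to 0.18 on the 4 Sham arrays. It was -1.17, -0.23, 0.0034 and -0.56 on TAC replicates 1 to 4. Each array is 1 mouse. On TAC replicates 2 and 3 the brown adipocyte mean lay within the range of the 4 Sham arrays, and on TAC replicates 1 and 4 below it. The mean of the 8 cholesterol enzymes was -0.56, -0.39, -0.50 and -0.37 on TAC replicates 1 to 4. The macrophage mean lay below every Sham array on TAC replicate 3 (-0.49) and TAC replicate 4 (-0.33). The mean of 10 macrophage markers was 1.01 on TAC replicate 1 and from -0.49 to -0.16 on TAC replicates 2 to 4, and that of 7 tested lymphocyte markers was 1.24 on TAC replicate 1 and from -0.38 to -0.01 on the others, with Cd79a and Ms4a1 too dim to test. Without TAC replicate 1, the median log2 difference of the 8 enzymes was -0.36 and 4 of the 8 were still lower at an unadjusted limma p under 0.05. The mean of 10 skeletal muscle markers was 1.62, 1.17, -0.59 and 1.45 on TAC replicates 1 to 4 and ran from -0.91 to 1.03 on the Sham arrays, so that 3 of the 4 TAC arrays lay above every Sham array. The median log2 difference of these markers was 1.02, with 0 of 10 at an unadjusted limma p under 0.05. On TAC replicate 3 the muscle mean lay among the Sham arrays. Endothelial markers lay between -0.07 and 0.15 over the 8 arrays and erythroid markers between -0.91 and 0.58. At an unadjusted limma p under 0.05, 1 of 5 endothelial and 1 of 10 macrophage markers were higher and 0 lower. The higher ones were Emcn (log2 difference 0.39) and Cd14 (0.38), and of all probes tested 4.38% were higher at that threshold. Of 6 proliferation markers 3 were tested. Their mean was 0.56 on TAC replicate 1, from -0.55 to -0.49 on TAC replicates 2 to 4 and from -0.20 to 0.35 on the Sham arrays. Cdk1 was lower at the unadjusted threshold (log2 difference -0.85, limma adjusted p = 0.197) but well above background on only 3 of 7 arrays. Ccnb1 had a log2 difference of -0.34 and Mki67 of 0.50, and neither passed that threshold. The part of these cell types in the differences of the enzymes was not tested.

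**Figure D4:**
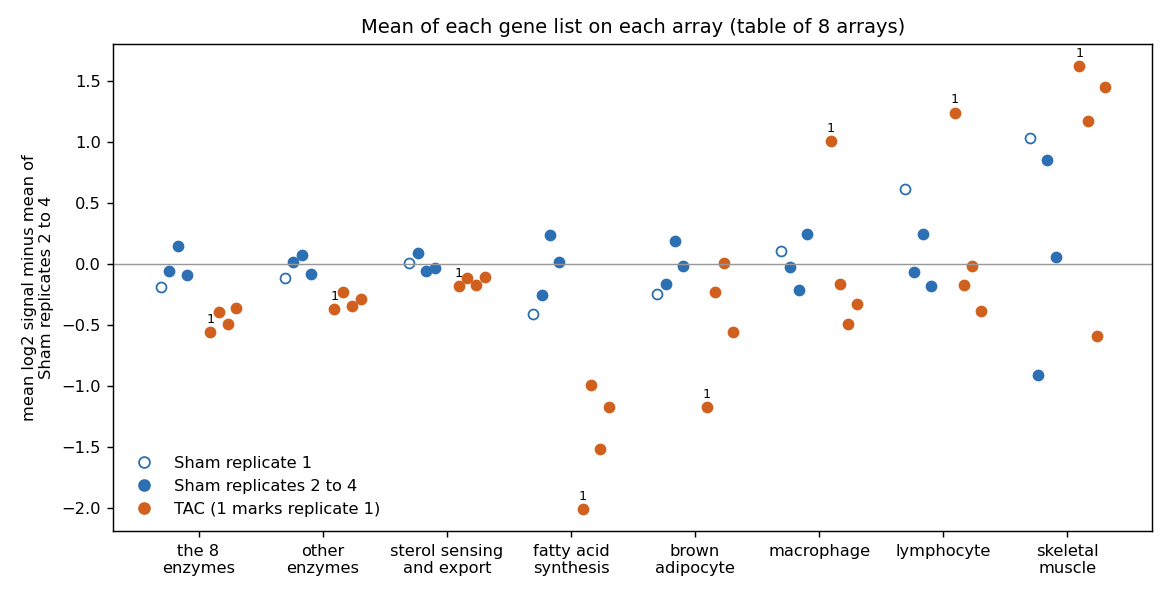
Mean log2 signal of each gene list on each of the 8 arrays of the deposited table, minus the mean of Sham replicates 2 to 4, with open circles for Sham replicate 1 and the digit 1 beside TAC replicate 1. The 8 enzymes lie between -0.56 and -0.37 on the TAC arrays and between -0.19 and 0.15 on the Sham arrays, while TAC replicate 1 is the highest array for the macrophage, lymphocyte and skeletal muscle markers and the lowest for brown adipocyte markers.

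Outside these lists, the 5 named genes whose log2 signal over the 7 arrays was most like the mean of the 8 enzymes were Klhdc10, Fam160a2, Fam104a, Slc22a2 and Mfng, each with a Pearson correlation of 0.99. Their log2 differences were -0.17, -0.24, -0.27, -0.62 and -0.25, with limma adjusted p between 0.305 and 0.44. The correlation is a description over 7 arrays of 1 slide that fall into 2 groups, so it reflects the group difference along with the order within groups.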

How the data were processed

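BAT mRNA of 4 Sham and 4 TAC mice was measured on 1-colour Agilent arrays. The authors extracted the scanned spots with Agilent Feature Extraction 10.7.1.1, and the deposited intensities of 7 arrays (Sham replicates 2 to 4, TAC replicates 1 to 4) had their background subtracted but were not brought to a common scale. The deposited table of intensities of all 8 arrays is, by its values, the same signal divided by about the 75th percentile of each array (75th percentiles of its columns 1.002 to 1.004), and how it was made is not given in the sources used here. Over the 8 enzymes its log2 values lie 0.172 to 0.205 above those computed here, by an amount that is constant within an array, so Sham replicate 1 is compared only on the scale of the table.

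From the 59305 spots per array that are not controls, log2 intensity minus the 75th percentile of the array was computed, outlier spots (134 to 191 per array) were left out and spots of a probe averaged. Between 54.5% and 64.3% of the spots were well above background, and the number of arrays limits the precision. The 33364 probes tested had at least 3 arrays well above background and at least 2 measured arrays in each group. The groups were compared with limma 3.58.1 in R 4.3.3 (lmFit and eBayes, two-sided, Benjamini-Hochberg over all probes tested), with group as the only factor; every p printed is from limma unless said otherwise. The script was tested on simulated data. The files give transcript accessions, and symbols came from a RefSeq table of GRCm38.p6, which named 28026 of 55681 probes. No gene coordinates are printed, since the design of the array used another assembly; promoter windows are those of RefSeq on GRCm38.p6.

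The enzymes and the gene lists were chosen with earlier results of these data known. The text names every enzyme with all its probes, genes of the lists for other enzymes of the pathway, sterol sensing and export and fatty acid synthesis, cell type markers, and the 5 genes most like the mean of the 8 enzymes. The probe with the highest mean signal stands for a gene. Some further genes of these lists and of sterol metabolism are not reported here. Alternatives were normexp (offset 50) as background correction, quantile normalization, median centring, the table of 8 or of the same 7 arrays, other filters, outlier spots kept, an intensity trend, array weights, the methods' t-test, a replicate block and leaving out arrays.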

Additional observations from a re-analysis of the deposited data

Results flagged for a closer look

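Among the enzymes and the genes of sterol sensing and export, 58 groups of 4 arrays were looked at and 7 held 1 array far from the other 3. Chance picks out about 1 group in 20 if groups are independent. These groups share the same arrays, so the 2 shares cannot show an excess. Each is given with the gap to the nearest array as a share of the range of the group, for TAC from the scanner signal and for Sham from the table, in log2 signal. On TAC replicate 1, Scap was 3.52 against 4.01 to 4.07 (share 0.887), Insig2 was 1.92 against 2.14 to 2.16 (share 0.928) and Nr1h2 was 4.65 against 4.92 to 4.96 (share 0.887). On Sham replicate 4, Hmgcs1 was 4.57 against 4.80 to 4.82 (share 0.897) and Ebp was 4.45 against 4.69 to 4.70 (share 0.931). Insig2 was 2.30 on Sham replicate 1 against 2.51 to 2.52 on the others (share 0.932), and Abcg1 was 0.786 on Sham replicate 3 against 1.15 to 1.20 (share 0.889). Of the 8 enzymes, Hmgcs1 was the only one with such an array. Why these arrays stood apart was not tested.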

How the results depend on the processing

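Under 22 alternatives, 174 of 176 log2 differences of the 8 enzymes kept their direction and, where tested, their side of the adjusted threshold. The 2 others were Fdft1, at 0.042 under quantile normalization and 0.017 in the table without TAC replicate 1. This count overstates the agreement, because other filters, the intensity trend and the methods' t-test cannot change a log2 difference. Keeping outlier spots also left all 8 unchanged. The replicate block repeated the differences without TAC replicate 1 in the scanner data and those of the 8 arrays in the table. Fdps ran from -1.25 to -0.92, Idi1 from -0.89 to -0.70, Sqle from -0.93 to -0.49 and Lss from -0.64 to -0.46, each at an unadjusted p under 0.05 in 21 of the 21 alternatives with a test, and Cyp51 was under 0.05 in 7 of the 21. The count of enzymes lower at that threshold stayed between 4 and 5, and their median between -0.45 and -0.32. That of the other enzymes ran from 3 to 7 when each array was left out, with 7 without Sham replicate 4. Probes past the adjusted threshold numbered 1 lower under normexp, median centring and array weights, and 0 to 1 lower and 0 to 7 higher when each array was left out, all of them without TAC replicate 4. The cause was not tested. By the methods' t-test there were 2587 probes lower and 1602 higher at an unadjusted p under 0.05 and 0 after Benjamini-Hochberg adjustment (smallest adjusted p 0.0593). Correlations of the deviations of same-numbered arrays were -0.025 to 0.00093 in the scanner data and, in the table, 0.27 for replicate 1 and 0.02 to 0.056 for replicates 2 to 4, so not every pair deviated together and the numbers were not taken to pair the mice. With the replicate block, 4 enzymes were lower in the scanner data, where TAC replicate 1 has no partner, and 5 in the table. With 3 Sham arrays in the fit, the difference of Cyp51 lay at the limit of the unadjusted threshold, and none of the 8 enzymes passed the adjusted one.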
